A study of Mus musculus with 20 samples.

Results

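Mouse mitochondrial DNA (mtDNA) encodes 7 subunits of respiratory complex I, and their mRNAs are mt-Nd1, mt-Nd2, mt-Nd3, mt-Nd4, mt-Nd4l, mt-Nd5 and mt-Nd6. These genes were chosen by the normalized counts of mt-Nd3, which were lower in Katnal2-KO than in WT brains at P70, so that contrast is given for them as a description, with no test. All 7 were present among the 19463 genes of the expression table. Whole-brain RNA was measured in 20 male C57BL/6J mice, 5 in each of the P21 KO, P21 WT, P70 KO and P70 WT groups, where P21 is 3 weeks and P70 is 10 weeks of age. KO mice were homozygous for a Katnal2 allele that lacks exon 3. It was derived from the tm1a EUCOMM allele by Flp recombination in the male germline (Protamine-Flp) and by treating early embryos with HTNC, a cell-permeable Cre, so the deletion was not restricted to any cell type. All groups shared the C57BL/6J background, reached by repeated backcrossing, and none received a treatment. Katnal2 is a microtubule-related protein linked to autism spectrum disorders, and the study asked how the brain transcriptome of the KO mice differed from WT at each age.

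Complex I (NADH:ubiquinone oxidoreductase) takes electrons from NADH, passes them to ubiquinone and pumps protons across the inner mitochondrial membrane. The subunits encoded in mtDNA lie in its membrane arm, where protons are moved, and the remaining core subunits and all accessory subunits are made from nuclear genes and imported. mtDNA is transcribed as long precursors that are cut into mRNAs, tRNAs and rRNAs, and neurons depend heavily on respiration for ATP. ND2, ND4 and ND5, the products of mt-Nd2, mt-Nd4 and mt-Nd5, are the antiporter-like pump subunits. ND1 helps to form the ubiquinone-binding site at the joint with the peripheral arm, and ND3, ND4L and ND6 are small subunits between ND1 and the pumps.

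In GRCm38, mt-Nd1 lay at chrM:2751-3707, mt-Nd2 at chrM:3914-4951, mt-Nd3 at chrM:9459-9806, mt-Nd4l at chrM:9877-10173, mt-Nd4 at chrM:10167-11544 and mt-Nd5 at chrM:11742-13565, all on the plus strand. mt-Nd6 lay at chrM:13552-14070 on the minus strand. Each is a single exon without an intron in the GENCODE M21 annotation. mt-Nd4l and mt-Nd4 overlapped by 7 bases on the same strand, and mt-Nd5 and mt-Nd6 by 14 bases on opposite strands, and the library kit does not mark strand, so reads from the opposite strand cannot be told apart from those of mt-Nd6. The lengths ran from 297 bases for mt-Nd4l and 348 for mt-Nd3 to 1824 for mt-Nd5. The first 30 bases of each mRNA are shown because the members differ in their start codon, in capitals.
mt-Nd1: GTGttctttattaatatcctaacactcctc
mt-Nd2: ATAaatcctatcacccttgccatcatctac
mt-Nd3: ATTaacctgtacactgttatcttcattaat
mt-Nd4: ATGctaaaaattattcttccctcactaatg
mt-Nd4l: ATGccatctaccttcttcaacctcaccata
mt-Nd5: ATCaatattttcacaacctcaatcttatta
mt-Nd6: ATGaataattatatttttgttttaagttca
ATG opened mt-Nd4, mt-Nd4l and mt-Nd6, and the other 4 began with GTG, ATA, ATT or ATC. mt-Nd1 and mt-Nd2 ended in TAG and mt-Nd3, mt-Nd4l, mt-Nd5 and mt-Nd6 in TAA, whereas mt-Nd4 ended in a lone T after its last whole codon. Guanine made up 8.0% to 11.6% of the bases of the 6 plus-strand mRNAs and 28.1% of mt-Nd6.

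Nuclear copies of mtDNA bear on these mRNAs, because the reads of a gene and of a near-identical copy can be assigned to either. BLASTN of the members against the annotated transcripts found near-identical copies, with at least 95% identity over at least 80% of the gene, for mt-Nd3 and mt-Nd4l. The copy of mt-Nd3 was Gm28438, at chr1:24612775-24613119 on the minus strand, and the copy of mt-Nd4l was Gm10222, at chr1:24612407-24612700 on the same strand. Both are annotated as unprocessed pseudogenes, and both had values in the table. The first 150 bases and the last bases of mt-Nd3 and Gm28438 are shown, since mt-Nd3 is the gene on which the members were chosen. The capitals mark the base that differed and the 3 final bases that the copy lacked.
mt-Nd3 from base 1: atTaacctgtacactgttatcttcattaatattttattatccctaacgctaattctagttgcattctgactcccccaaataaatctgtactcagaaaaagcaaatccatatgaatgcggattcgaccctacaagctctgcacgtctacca
Gm28438 from base 1: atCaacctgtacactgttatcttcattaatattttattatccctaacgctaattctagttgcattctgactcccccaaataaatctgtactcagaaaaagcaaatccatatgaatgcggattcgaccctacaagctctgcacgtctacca
mt-Nd3 from base 289: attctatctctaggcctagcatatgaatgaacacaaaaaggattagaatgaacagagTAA
Gm28438 from base 289: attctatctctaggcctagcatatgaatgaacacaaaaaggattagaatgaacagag
Over the 345 bases compared the single substitution was T3C, counted from the first base of mt-Nd3, with the base of mt-Nd3 first and that of Gm28438 last. mt-Nd4l, shown whole because its copy carries no substitution, was matched by Gm10222 without a mismatch over 294 bases, and the capitals mark the 3 bases that Gm10222 lacked.
mt-Nd4l: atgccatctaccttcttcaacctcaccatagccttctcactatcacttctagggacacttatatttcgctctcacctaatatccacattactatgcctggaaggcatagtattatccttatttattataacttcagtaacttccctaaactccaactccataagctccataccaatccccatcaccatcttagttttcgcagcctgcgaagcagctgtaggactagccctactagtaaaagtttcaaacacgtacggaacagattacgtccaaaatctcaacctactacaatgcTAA
The copies found for the other members were shorter or less alike. Gm28439 matched the first 876 bases of mt-Nd4, 63.6% of that gene, without a mismatch. Gm13339 matched 49.1% of mt-Nd2 at 96.67% identity, Gm4076 matched 52.3% of mt-Nd5 at 95.18%, and Gm11408 matched the whole of mt-Nd6 at 93.64%. None of these 4 had a value in the table, and no copy of mt-Nd1 was among the matches kept. Matches under 150 bases, of low identity or on a nuclear chromosome left out of the list were not kept. The absence of a copy, here and in the groupings of members below, therefore holds only for the matches kept. Of the other mtDNA mRNAs, mt-Co2, mt-Co3 and mt-Atp6 had copies without a mismatch in the same block of chromosome 1, named Gm28661, Gm28437 and Gm10925. In that block Gm29216 matched 31.3% of mt-Co1 at 99.79% identity. Gm13340, on chromosome 2, matched the whole of mt-Co1 at 97.61%, and both had values in the table.

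**Figure D1:**
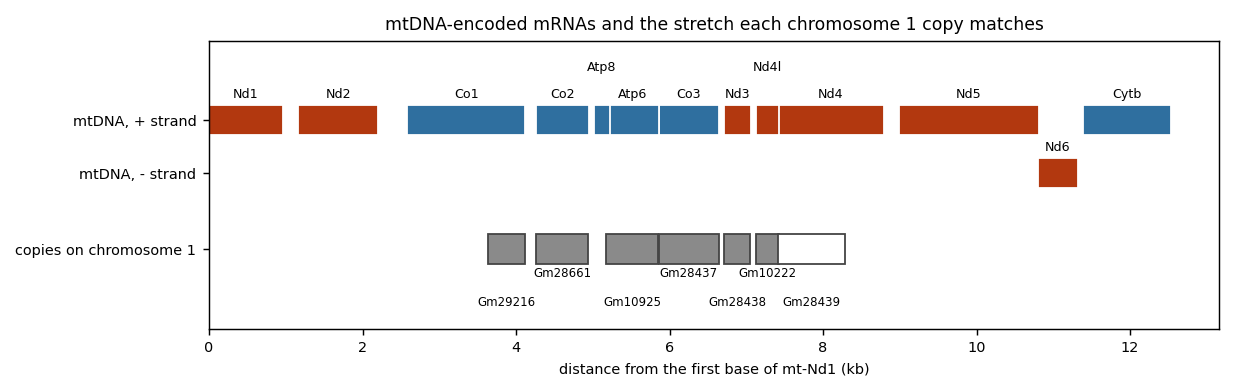
The map places the 13 mtDNA-encoded mRNAs by distance (kb) from the first base of mt-Nd1, with complex I genes in red and the others in blue, and below them the stretch that each copy on chromosome 1 matches. Grey copies had values in the table and the white one, Gm28439, had none; mt-Nd3 and mt-Nd4l lie wholly within the copied block, but for their last 3 bases, while mt-Nd1, mt-Nd2, mt-Nd5 and mt-Nd6 lie outside it.

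The deposited values were DESeq2-normalized counts estimated by Salmon, and they summed to 27310523 to 28423042 per mouse, so sums no longer show depth. Neuron markers were abundant in every group, with summed values of 7 genes between 148524 and 162490. Katnal2 ranged from 78.1 to 96.0 in P21 KO, 99.3 to 115.4 in P21 WT, 95.1 to 125.5 in P70 KO and 101.3 to 141.5 in P70 WT. The values count the whole gene and not exon 3, so they do not check the genotype labels. The replicate 5 mice of P70 stood apart from the other P70 mice. Their median correlations across genes were 0.967 and 0.974, against 0.984 to 0.986 for the others. The P70 differences of mt-Nd3 and mt-Nd4l between KO and WT are given with and without these mice. Other results use all mice unless a sentence says otherwise. The labels give separate mice but no litter or sequencing batch.

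The 7 complex I mRNAs made up 1.55% ± 0.05 (SD, n = 5) of all values in P21 KO, 1.57% ± 0.10 in P21 WT, 1.55% ± 0.28 in P70 KO and 1.55% ± 0.15 in P70 WT. The share of all 13 mtDNA-encoded mRNAs was 4.28% ± 0.17, 4.33% ± 0.30, 4.03% ± 0.75 and 4.06% ± 0.37 in the same order. The groups therefore overlapped, and the largest spread was in P70 KO, where replicate 2 reached 5.28% and replicate 5 had 3.24%. Per kb of annotated length, the normalized counts over 20 mice averaged 111718 for mt-Nd1, 97596 for mt-Nd4, 72295 for mt-Nd2, 45669 for mt-Nd5, 34858 for mt-Nd6, 28754 for mt-Nd3 and 11918 for mt-Nd4l. The lowest, mt-Nd3 and mt-Nd4l, are also the shortest members, with 348 and 297 bases. Whether the order of these counts is also that of the mRNA levels was not tested. That order held between neighbours in all 20 mice for mt-Nd1 over mt-Nd4, mt-Nd4 over mt-Nd2, mt-Nd2 over mt-Nd5 and mt-Nd3 over mt-Nd4l. mt-Nd5 was above mt-Nd6 in 18 mice and mt-Nd6 above mt-Nd3 in 15, so the neighbours in the middle of the order were not fully separated. With the copy added, and per kb of the mitochondrial gene, the means by group were 39468 to 42866 for mt-Nd3 and 47699 to 50864 for mt-Nd4l, which put mt-Nd4l, the lowest by itself, next to mt-Nd5.

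**Figure D2:**
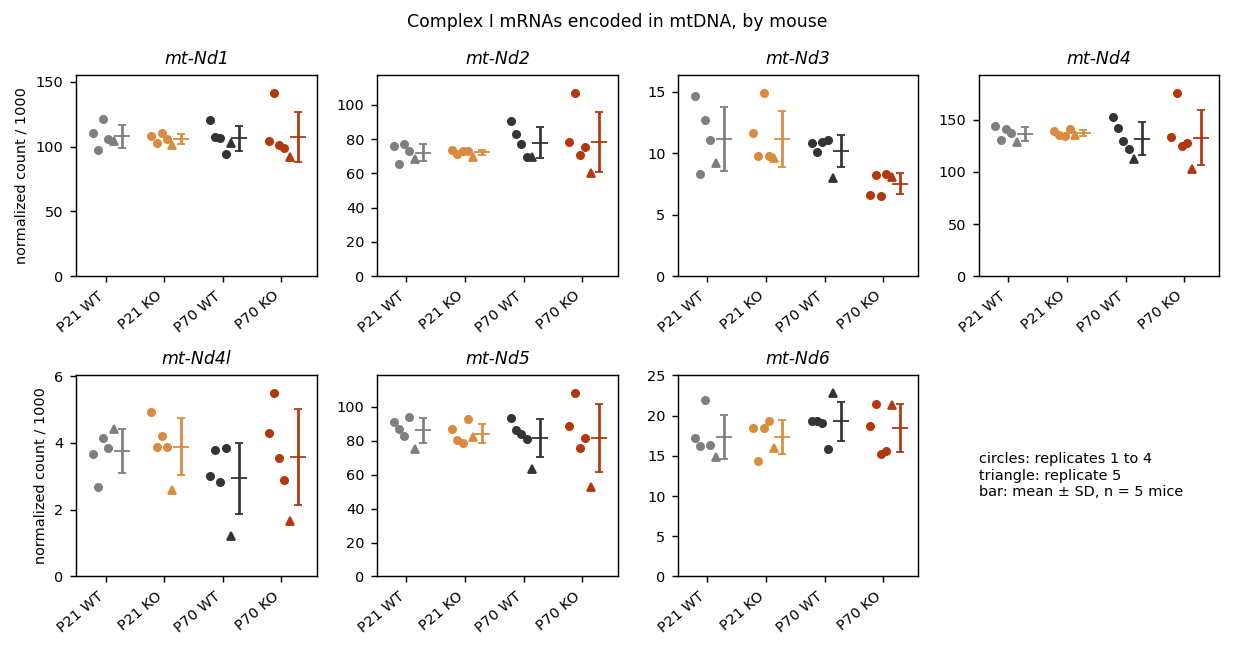
Each panel plots the normalized count (linear axis from 0, scaled as labelled) of 1 complex I mRNA in every mouse of the 4 groups, with the mean ± SD (n = 5) beside the points and triangles for replicate 5. KO and WT mice of the same age overlap in every panel; in mt-Nd3 the P70 KO mice sit between 6559 and 8275 and the P70 WT mice between 7986 and 11115.

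At P21 the KO and WT groups could be tested, since the choice of the genes did not use that age. None of the 7 mRNAs differed between KO and WT in limma with Benjamini-Hochberg adjustment over 17610 genes, in which 0% of the genes passed an adjusted p of 0.05 and 429, or 2.44%, had an unadjusted p under 0.05 (limma, threshold for each 0.05). None of the 7 had an unadjusted p under 0.05 either. The log2 differences (KO minus WT, on the log2(value + 1) scale) lay between -0.03 for mt-Nd5 and 0.04 for mt-Nd4l, with an adjusted p of 1 for each. The 95% intervals were narrowest for mt-Nd4, from -0.09 to 0.12, and for mt-Nd2, from -0.11 to 0.12, and widest for mt-Nd4l, from -0.30 to 0.38, and mt-Nd3, from -0.33 to 0.34. For mt-Nd3 the P21 KO mice had normalized counts of 11666, 9770, 14909, 9745 and 9578. The P21 WT mice had 14658, 8296, 12689, 11061 and 9170. The groups overlapped almost completely, with means of 11134 ± 2277 and 11175 ± 2586 (SD, n = 5). Relative to the geometric mean of the 13 mtDNA mRNAs in the same mouse, the log2 level of mt-Nd3 was -2.06 ± 0.25 in KO and -2.03 ± 0.36 in WT at P21 (exact two-sided permutation test, p = 0.905).

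At P70 mt-Nd3 had the values that chose these genes. The P70 KO mice had normalized counts of 6606, 8193, 6559, 8275 and 8037. The P70 WT mice had 10833, 10107, 10878, 11115 and 7986. All 5 KO mice were below WT replicates 1 to 4, and WT replicate 5 fell within the KO range. The means were 7534 ± 873 in KO and 10184 ± 1286 in WT (SD, n = 5), a log2 difference of -0.43 (SE 0.11), or a ratio of 0.741. Without both replicate 5 mice the log2 difference was -0.54.

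Its nuclear copy Gm28438 had the opposite pattern in the same mice. The P70 KO mice had normalized counts of 6363, 7775, 6562, 5702 and 7532. The P70 WT mice had 3623, 3532, 3118, 4109 and 9285. WT replicate 5, the WT mouse with the lowest mt-Nd3, had the highest value of the copy, and the other 4 WT mice were below every KO mouse. At P21 the copy was listed at 1671, 3907, 2047, 3643 and 2772 in KO. In P21 WT it was listed at 0, 3724, 3874, 1786 and 3419, and replicate 1, with no value for the copy, had the highest mt-Nd3 of its group. Of the summed value of both genes, the copy held 47.4% ± 3.7 in P70 KO, 30.8% ± 13 in P70 WT, 20.6% ± 7.9 in P21 KO and 19.1% ± 12.4 in P21 WT (SD, n = 5).

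The sum of mt-Nd3 and Gm28438 did not carry the P70 pattern. It was 12969, 15968, 13121, 13977 and 15568 in the P70 KO mice. It was 14457, 13639, 13996, 15225 and 17270 in the P70 WT mice. The groups overlapped, and the log2 difference of the sum was -0.059 (SE 0.086), or -0.036 (SE 0.063) without both replicate 5 mice. The P21 sums ranged from 12350 to 16956 in KO and from 12019 to 16562 in WT, with a log2 difference of 0.02 (SE 0.10) and an adjusted p of 1 in limma. Summing the pair was chosen after the values were seen. Whether the values of the copy hold reads of mtDNA origin was not tested, because the assignment of single reads is not in the table.

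**Figure D3:**
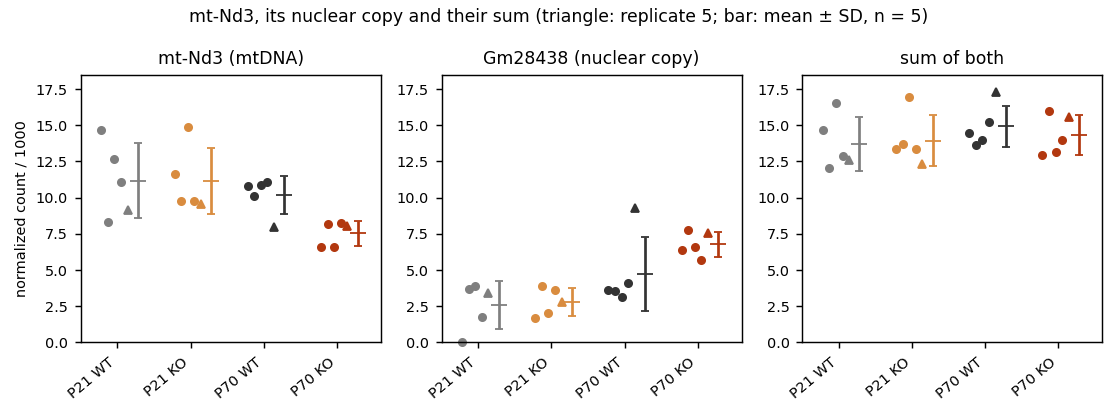
The panels plot the normalized counts (linear axis from 0, scaled as labelled) of mt-Nd3, of its nuclear copy Gm28438 and of their sum in each of 20 mice, with the mean ± SD (n = 5) and triangles for replicate 5. In P70 KO mt-Nd3 is low and the copy high, and the sums of all 20 mice lie between 12019 and 17270, with KO and WT overlapping at both ages.

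mt-Nd4l, the other member with a near-identical copy in the table, had a higher mean in P70 KO, a difference that rested on single mice. The P70 KO mice had normalized counts of 4289, 5490, 3543, 2891 and 1648. The P70 WT mice had 3013, 3775, 2831, 3861 and 1226. The groups overlapped, the replicate 5 mice were the lowest of each, and the log2 difference was 0.28 (SE 0.35). It was -0.013 without WT replicate 5, 0.094 without KO replicate 2 and 0.53 without KO replicate 5, and 0.24 without both replicate 5 mice. Gm10222 held most of the pair, with 75.8% ± 3.0 in P70 KO, 81.0% ± 4.9 in P70 WT, 72.3% ± 6.8 in P21 KO and 73.5% ± 5.0 in P21 WT (SD, n = 5). The summed pair had a log2 difference of -0.10 (SE 0.27) at P70, and of 0.01 (SE 0.11) without both replicate 5 mice.

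The members without a copy in the table had KO and WT means within 1 SD of each other at P70. mt-Nd1 averaged 107574 ± 19492 in KO and 106375 ± 9552 in WT, mt-Nd2 78160 ± 17457 and 77834 ± 9105, mt-Nd4 132819 ± 26623 and 131825 ± 16063, and mt-Nd5 81319 ± 20012 and 81648 ± 11353 (SD, n = 5). mt-Nd6 averaged 18465 ± 2978 in KO and 19268 ± 2453 in WT. The log2 differences of these 5 mRNAs lay between -0.07 and 0.00, with standard errors of 0.11 to 0.17. KO replicate 2 had the highest and KO replicate 5 the lowest value of the KO group for mt-Nd1, mt-Nd2, mt-Nd4 and mt-Nd5. Relative to the geometric mean of the 13 mtDNA mRNAs of the same mouse, mt-Nd3 was lower in KO at P70 by 0.32 on the log2 scale. mt-Nd4l was higher by 0.39, and the other members differed by 0.05 to 0.12. The reference was itself lower in KO. It holds mt-Co2, which differed by -1.04 (SE 0.52) by itself and by 0.042 (SE 0.101) summed with its chromosome 1 copy. Over the whole table limma called 0% of 17613 genes between KO and WT at P70, and 199, or 1.13%, had an unadjusted p under 0.05 (limma). The difference of mt-Nd3 at P70 minus that at P21 was -0.44 (SE 0.21), an estimate that holds the contrast on which the genes were chosen.

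Between the ages, averaged over both genotypes, mt-Nd3 was the single member of 7 with an adjusted p under 0.05. Its normalized count was lower at P70, by a log2 difference of -0.33 (SE 0.10, 95% interval -0.55 to -0.12, adjusted p = 0.0214 in limma). Over 17637 genes, 25.4% passed the same threshold, 12.8% lower and 12.6% higher at P70, so 1 of 7 is no larger a share than that of all genes. Within WT the log2 difference of mt-Nd3 was -0.11 (SE 0.15) and within KO it was -0.55 (SE 0.15). Both values, like the average over genotypes, contain the P70 mice used for the choice. The call did not hold for the summed pair, in which mt-Nd3 and Gm28438 together differed by 0.083 (SE 0.068, limma, adjusted p = 0.403), nor after removing a smooth trend on exon length and GC content, with -0.10 (limma, adjusted p = 0.663). mt-Nd4l fell short of the threshold, with -0.32 (SE 0.21, limma, adjusted p = 0.279), and with -0.05 (adjusted p = 0.792) without both P70 replicate 5 mice. The summed pair of mt-Nd4l differed by 0.02 (SE 0.15, adjusted p = 0.953 in limma). Without both P70 replicate 5 mice that sum was higher at P70 by 0.22 (SE 0.07, adjusted p = 0.0136 in limma). The other 5 members lay between -0.08 for mt-Nd5 and 0.12 for mt-Nd6, with adjusted p of 0.318 to 0.955 in limma. The 95% intervals reached from -0.14 to 0.13 for mt-Nd1, from -0.06 to 0.26 for mt-Nd2, from -0.21 to 0.09 for mt-Nd4, from -0.28 to 0.11 for mt-Nd5 and from -0.05 to 0.30 for mt-Nd6.

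**Figure D4:**
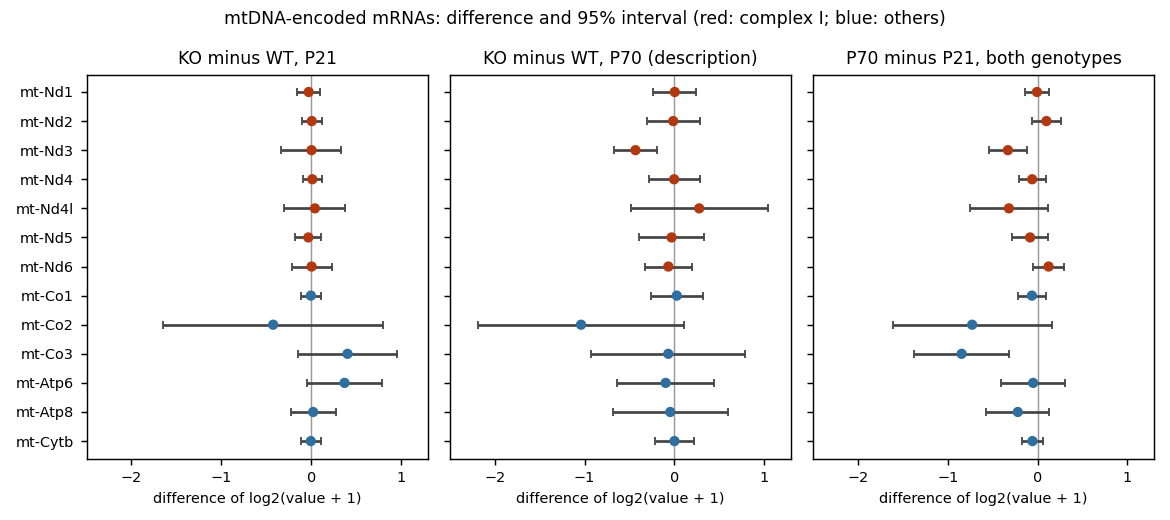
Points are differences of log2(value + 1) and bars 95% intervals from limma for the 13 mtDNA-encoded mRNAs, with complex I in red and the others in blue, for KO minus WT at P21, KO minus WT at P70 and P70 minus P21 over both genotypes. Between the ages mt-Nd3 is the complex I mRNA whose interval, -0.55 to -0.12, excludes 0. Its P70 value is the contrast used for the choice and no test. mt-Co2, mt-Co3 and mt-Atp6, which also have copies, have wider intervals than mt-Cytb, mt-Nd1, mt-Nd2, mt-Nd5 and mt-Nd6. Their intervals are also wider than those of mt-Co1 and mt-Nd4, which have whole or partial copies too. mt-Atp8, which has no copy in the table, does not follow this split. Its interval for KO minus WT at P70, -0.69 to 0.59, is wider than that of mt-Atp6, -0.64 to 0.45.

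The mRNAs of the other respiratory complexes gave the members a measure within mtDNA. mt-Co3, a subunit of cytochrome c oxidase, was lower at P70 by a log2 difference of -0.85 (SE 0.25, adjusted p = 0.0178 in limma), and mt-Co2 of the same enzyme had -0.73 (SE 0.43, adjusted p = 0.226). Summed with its chromosome 1 copy, mt-Co3 was lower at P70 by a log2 difference of -0.15 (SE 0.05, adjusted p = 0.0298 in limma), which kept the call at a smaller size. The sum of mt-Co2 and its chromosome 1 copy differed by 0.034 (SE 0.062, adjusted p = 0.735 in limma). mt-Co1, mt-Cytb, mt-Atp6 and mt-Atp8 lay between -0.22 and -0.05 and were not called. Between KO and WT none of the 6 was called at P21 or at P70 by limma, and none had an unadjusted p under 0.05. The largest value was that of mt-Co2 at P70, -1.04 (SE 0.52, adjusted p = 1 in limma), and summed with the same copy it was 0.042 (SE 0.101, adjusted p = 1 in limma).

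Within groups, mt-Nd3 and its copy tended to deviate in opposite directions, which passed after adjustment by Pearson r but not by Spearman rho. After the mean of each group was subtracted, the log2 values of mt-Nd3 and Gm28438 over 20 mice had a Pearson r of -0.547 (permutation p = 0.00553, adjusted over 7 pairs 0.0129) and a Spearman rho of -0.475 (permutation p = 0.0314, adjusted 0.0732). Without the 2 mice farthest from the median of mt-Nd3, r was -0.498. Those mice were picked on mt-Nd3 alone, so P21 WT replicate 1, where the copy was 0, stayed in. The r was not computed without that mouse, so how far it rests on it was not tested. mt-Nd4l and Gm10222 had r = 0.611 (permutation p = 0.0311, adjusted 0.0544) and rho = 0.122 (permutation p = 0.645, adjusted 0.753), and r was 0.098 without the 2 farthest mice, so that value rested on them. Of the 5 pairs outside complex I, those of mt-Co2 and of mt-Co3 with their chromosome 1 copies had stronger opposite deviations. For mt-Co2 and Gm28661 r was -0.77 (permutation p = 0.00023, adjusted 0.000805) and rho -0.824 (permutation p = 3e-05, adjusted 0.00021), with r = -0.722 without the 2 farthest mice. For mt-Co3 and Gm28437 r was -0.821 (permutation p = 0.00013, adjusted 0.000805) and rho -0.785 (permutation p = 0.00035, adjusted 0.00122), with r = -0.731 without the 2 farthest mice. The remaining pairs did not pass. For mt-Atp6 and Gm10925 r was -0.255 (permutation p = 0.323, adjusted 0.376) and rho -0.232 (permutation p = 0.377, adjusted 0.527), with r = -0.389 without the 2 farthest mice. For mt-Co1 and Gm13340, on chromosome 2, r was 0.074 (permutation p = 0.786, adjusted 0.786) and rho -0.021 (permutation p = 0.94, adjusted 0.94), with r = 0.176 without the 2 farthest mice. For mt-Co2 and Gm13341, also on chromosome 2, r was 0.491 (permutation p = 0.0575, adjusted 0.0805) and rho 0.386 (permutation p = 0.13, adjusted 0.227), with r = 0.205 without the 2 farthest mice. The pooled SD of log2 values within groups was 0.25 for mt-Nd3 and 0.16 for its sum with the copy. For the copy, whose value was 0 in P21 WT replicate 1, the pooled SD was 2.63. That SD was 0.52 for mt-Nd4l and 0.37 for its sum, 1.077 for mt-Co2 and 0.14 for its sum, and 0.64 for mt-Co3 and 0.11 for its sum. The complex I mRNAs without a copy in the table had 0.15 to 0.23. Outside complex I, mt-Cytb and mt-Atp8 had no copy in the table either, and their SDs were 0.13 and 0.42, so mt-Atp8 varied more than mt-Nd3 did.

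**Figure D5:**
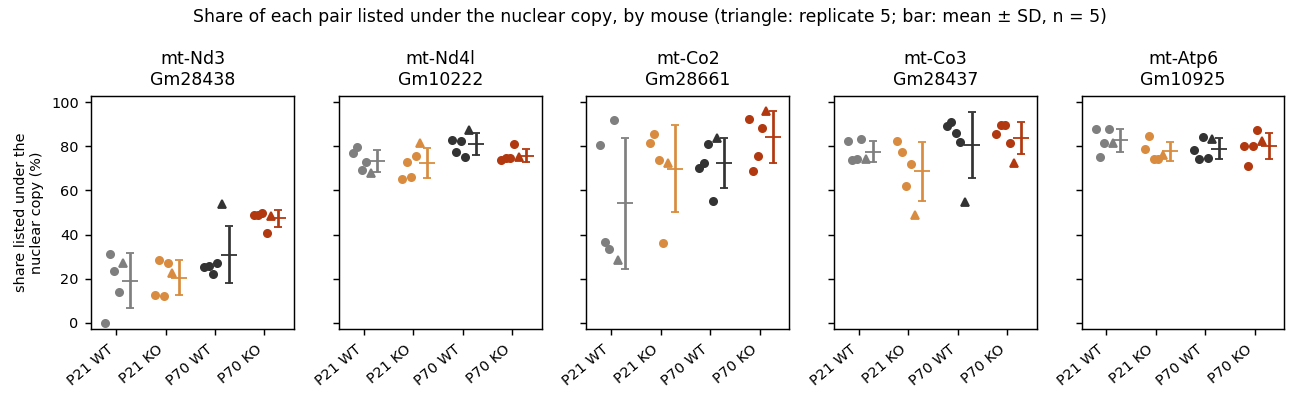
Each panel plots, for every mouse, the percent of the summed value of an mtDNA mRNA and its chromosome 1 copy that was listed under the copy, with the mean ± SD (n = 5) and triangles for replicate 5. For mt-Nd3 the P70 KO mice lie between 40.8% and 50.0% and the P70 WT mice between 22.3% and 53.8%; the shares of mt-Co2 range most widely, from 28.6% to 96.2%.

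The same group-centred log2 values were used to find the genes most like each member over 20 mice, among 17636 others; the values of a mouse share a library, so these are descriptions. mt-Nd2 and mt-Nd4 were the most alike of all genes to each other, with r = 0.976, and mt-Nd1 was most like mt-Cytb, the mRNA of a complex III subunit, with r = 0.969. mt-Nd5 was most like Gm10222, the copy of mt-Nd4l, with r = 0.931, and mt-Nd4l was most like Rab18, a small GTPase, with r = 0.926. In both P70 groups the replicate 5 mice had the lowest values of mt-Nd5, Gm10222 and mt-Nd4l. The r values were not computed without those mice, so how far they rest on them was not tested. mt-Nd6 was most like Ndufc2, a nuclear accessory subunit of complex I, with r = 0.821. No other member was among the genes most like mt-Nd3. The 5 genes most like it were Mob3c (r = 0.745), Slc36a2 (r = 0.717), Prelid3b (r = 0.690), Cfap61 (r = 0.686) and Cetn4 (r = 0.683). Its r with the other members lay between 0.171 for mt-Nd5 and 0.362 for mt-Nd1.

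The nuclear genes of complex I gave the rest of the pathway. They were 7 core subunits, 30 accessory subunits and 18 assembly factors with a value. At P21 none of the 55 passed the adjusted threshold in limma, and Ndufaf7, an arginine methyltransferase needed for assembly, was the one gene with an unadjusted p under 0.05 (log2 difference -0.14, SE 0.07, adjusted p = 1). At P70 none of the 55 passed it between KO and WT, and none had an unadjusted p under 0.05; the medians were 0.03 for core subunits, 0.06 for accessory subunits and 0.03 for assembly factors, against -0.01 for all genes. Between the ages 1 of 7 core and 3 of 30 accessory subunits were lower at P70 and none was higher, shares near or under the 12.8% of all genes. Ndufs1, the largest iron-sulfur core subunit, fell by 0.14 on the log2 scale (SE 0.04, limma, adjusted p = 0.0116), Ndufa1 fell by 0.39 (SE 0.08, limma, adjusted p = 0.000727) and Ndufa9 fell by 0.24 (SE 0.05, limma, adjusted p = 0.000639). Ndufb6, the other accessory subunit that passed, is named after its value was seen and fell by 0.21 (SE 0.07, limma, adjusted p = 0.0294). Of the 18 assembly factors 2 were lower and 2 higher, shares under the 12.8% and 12.6% of all genes. Dmac1 (-0.33, limma, adjusted p = 0.00105) and Nubpl (-0.30, limma, adjusted p = 0.00806), which delivers iron-sulfur clusters, were lower. Ndufaf6 (0.29, limma, adjusted p = 0.0204) and Ecsit (0.28, limma, adjusted p = 0.0197), also named after their values were seen, were higher. The median log2 difference was -0.04 for core subunits, -0.09 for accessory subunits and 0.02 for assembly factors, against -0.01 for all genes.

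The nuclear genes that transcribe, process and replicate mtDNA had no call between KO and WT at either age in limma. Of 27 transcription and RNA genes at P21, Tefm, a transcription elongation factor (0.34, SE 0.12), and Fastkd1, which acts on mitochondrial RNA (-0.17, SE 0.06), had an unadjusted p under 0.05 and an adjusted p of 1. Of 8 replication genes, Rnaseh1 did so (-0.17, SE 0.08). At P70 none of the 35 had an unadjusted p under 0.05. Between the ages 2 of the 27 were lower at P70, a smaller share than the 12.8% of all genes. These were Mtpap, the poly(A) polymerase of mitochondrial mRNAs (-0.27, SE 0.05, limma, adjusted p = 0.000222), and Grsf1, an RNA granule protein (-0.10, SE 0.04, limma, adjusted p = 0.0451). Of the 8 replication genes 1 was higher and 1 lower, shares near the 12.6% and 12.8% of all genes. The exonuclease Mgme1 was higher (0.41, SE 0.07, limma, adjusted p = 9.3e-05) and Ssbp1, the single-strand binding protein, lower (-0.19, SE 0.05, limma, adjusted p = 0.00651). The rRNAs mt-Rnr1 and mt-Rnr2 were called in none of these comparisons, with log2 differences between -0.11 and 0.09.

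Markers of cell types moved between the ages beside these values, against shares of 12.8% lower and 12.6% higher at P70 among all genes. All 6 oligodendrocyte markers were lower at P70, with a median log2 difference of -1.20 and group ranges of the summed value of 379118 to 558363 in P21 KO, 379578 to 428153 in P21 WT, 144591 to 191620 in P70 KO and 160160 to 183859 in P70 WT. All 5 blood markers were also lower at P70, with a median of -1.47, and their sums ranged from 12038 to 61276 at P21 and from 6982 to 13110 at P70. Of the other lists, 3 of 8 choroid plexus markers and 1 of 6 ependymal markers were higher at P70, with medians of 0.30 and 0.19. Of 6 meningeal markers 3 were lower, with a median of -0.33, and of 7 neuronal markers 2 were higher and 3 lower. In the astrocyte and microglia lists 1 of 6 was lower, and in the pituitary list 1 of the 5 measured was lower, each by limma. Between KO and WT at P21, all 5 blood markers had an unadjusted p under 0.05 and were lower in KO, with a median of -0.75 and none adjusted below 0.05 in limma. The ependymal marker Foxj1 (0.29, SE 0.09) and the choroid plexus markers Slc4a5 (0.61, SE 0.19) and Folr1 (0.58, SE 0.25) also had an unadjusted p under 0.05 at P21, were higher in KO and had an adjusted p of 1 in limma. The medians of their lists were 0.23 and 0.28. At P70, 6 of 6 ependymal and 8 of 8 choroid plexus markers were measured, with median log2 differences of 0.18 and 0.38 and no gene with an unadjusted p under 0.05. None of the markers in these lists was at 0 throughout a group. Their part in the values of the complex I mRNAs was not tested, and in bulk brain RNA fewer cells of a type and less RNA per cell cannot be told apart. Among the 44 genes with 200 to 400 bases of exon, the length class of mt-Nd3, mt-Nd4l and mt-Atp8, the median log2 difference between the ages was -0.04 with 10th and 90th percentiles of -0.47 and 0.43. For KO minus WT at P70 it was 0.05 over 47 genes, with percentiles of -0.20 and 0.48.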

How the data were processed

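RNA of 20 whole brains was selected by poly(A), made into TruSeq RNA v2 libraries and sequenced in pairs. The authors estimated transcript abundance with Salmon (1.1.0 per the submitters' processing notes) against GRCm38, correcting for GC bias, and brought the estimates through tximport to DESeq2, which divided them by size factors (DESeq2 1.26.0 and R 3.6.2 in those notes; the study's methods name other versions). The deposited signal values are therefore normalized counts, not raw counts, and the annotation release is not given in the sources used here. Salmon divides reads that match several transcripts by a probability model, so near-identical genes share reads. Whole reads could not be recovered from the low values (12.9% to 43.8% of them fell within 5% of a multiple of the best spacing), so no count test was run and the depth per mouse is unknown.

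Each age was fitted by itself for KO against WT, and all 20 mice together for age, with limma 3.58.1 in R 4.3.3 (lmFit, eBayes with trend) on log2(value + 1). Genes averaging under 10 were left out, p-values were adjusted by Benjamini-Hochberg, and calls were made under an adjusted p of 0.05. Fold changes on this scale understate those of low genes. The fit was tested on simulated data. The members and lists were chosen with earlier results of these data known. Genes named were the 7 members, the 6 other mtDNA mRNAs, near-identical copies, up to 2 genes with the smallest p per list, and the genes most alike to each member. The named genes of some lists are given in the text in part. Copies were searched with BLASTN 2.17.0+ in the GENCODE M21 transcripts, in place of the genome. 2 listed genes were absent from the table and 2 were matched through RefSeq synonyms. Correlations were tested with 100000 permutations within groups. The replicate numbers come from the sample labels and mark different mice. Alternatives were another pseudocount, no filter, no trend, quantile normalization, scaling on nuclear genes, a length and GC correction, a replicate block, and leaving out mice. Summing a gene with its copies was added after seeing the data.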

Additional observations from a re-analysis of the deposited data

Results flagged for a closer look

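Each group of 5 mice was screened for a value whose gap to its neighbour exceeded 0.71 of the range of the group (Dixon's 95% value), in 60 groups of values in all, of which chance flags about 1 in 20. In P70 KO, mt-Nd1 reached 141492 in replicate 2. In P70 WT, Gm28438 reached 9285 in replicate 5. The sum of mt-Nd3 and its copy reached 16956 in P21 KO replicate 3. The sum of mt-Nd4l and its copy was 9879 in P70 WT replicate 5, the lowest of its group. The 13 mtDNA mRNAs made up 4.85% of the values in P21 WT replicate 3. Their causes were not tested.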

How the results depend on the processing

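Depth is unknown from normalized values, and 5 mice per group set the precision. The log2 difference of mt-Nd3 between KO and WT at P70 ranged from -0.52 to -0.39 when single mice were left out, and was -0.059 when summed with its nuclear copy and -0.036 when also both replicate 5 mice of P70 were left out. For age, the call of mt-Nd3 (-0.33) ranged from -0.38 to -0.28 with single mice left out and was kept in each. It was lost after the length and GC correction (-0.096), also with the replicate block (-0.096), and its sign turned when it was summed with the copy (0.083, or 0.04 without both P70 replicate 5 mice). The number of members called between the ages was 1, but 2 after quantile normalization, where mt-Nd1 was higher at P70 by 0.25 (limma, adjusted p = 0.000119), and 0 after the length and GC correction, with or without the block, and for the summed pairs. The sum of mt-Nd4l and its copy was called, at 0.22, without both P70 replicate 5 mice. The cause of these changes was not tested. Genes with an unadjusted p under 0.05 at P21 numbered 429. There were 732 with the replicate block, 716 with the block and the length and GC correction, 207 with all 20 mice in one fit and 353 to 657 with single mice left out, the most without KO replicate 4. At P70 there were 199. There were 610 with the block, 322 with the length and GC correction, 631 with both, 346 with all 20 mice, 651 without both replicate 5 mice (648 with pairs summed) and 162 to 515 with single mice left out, including 515 without KO replicate 5 and 377 without WT replicate 5. Genes called for age numbered 3957 to 5156 with single mice left out and 6575 without both P70 replicate 5 mice. The replicate numbers were not taken as pairs, since not every correlation between the deviations of same-numbered KO and WT mice was over 0.1. At P21 they ran from -0.01 to 0.26. At P70 all 5 were positive, from 0.08 to 0.71, and 4 were over 0.1. The block left the value of mt-Nd3 at -0.43 for P70 and -0.33 for age. Over all genes, 1 was called between KO and WT at P21 after the length and GC correction, without KO replicate 4 and without WT replicate 3. At P70, 1 gene was called without both replicate 5 mice. Other settings left each of these results on its side of the threshold.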
